A study of Mus musculus with 8 samples.

Results

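Mitochondrial ribosomal proteins build the ribosome that works inside mitochondria. All of them are encoded in the nucleus, made in the cytosol and imported, and the finished particle translates only the few messages of mitochondrial DNA, which specify core subunits of the respiratory chain and of ATP synthase. A large subunit joins amino acids and a small subunit reads the message, and each holds proteins with a bacterial counterpart as well as proteins found only in mitochondria. The mammary gland is a mixture of adipocytes, epithelium, immune and vascular cells, all of which carry mitochondria.

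The genes described here are all protein-coding genes whose mouse symbol begins with Mrpl or Mrps followed by a digit, with pseudogenes left out. The rule found 78 of the 51789 genes in the deposited count table, 51 of the large subunit, 26 of the small subunit, and Mrps36, which despite its name is now placed in the oxoglutarate dehydrogenase complex. The Mrps name does not always mark the small subunit, because Mrps30 and Mrps18a are large subunit proteins. Of the 78 genes, 46 were classed as having a bacterial counterpart and 31 as found only in mitochondria. The second class does not exclude relatives in bacteria, since it holds Mrps18a and Mrps18b, which are related to bacterial S18.

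RNA came from whole mammary glands of female C57BL/6 mice, collected 6 weeks after 1 injection of small extracellular vesicles (sEVs), the membrane particles that cells release. Their source was AT3, a mouse line of metastatic mammary adenocarcinoma, grown in hypoxia (sEV-HYP, 1% oxygen, 2 libraries) or in normoxia (sEV-NORM, 3 libraries), or were prepared in the same way from medium that had held no cells (sEV-CTRL, 3 libraries). The labels name no engineered allele for these mice, no uninjected gland was analysed here, and every tumor vesicle came from a single cell line. The age of the mice is not given in the sources used here. Total counts per library ranged from 18194996 to 24622569, and the 78 genes took 0.286% to 0.331% of them. Each of the 78 had at least 41 counts in every library and at most 3887, and all passed the filter on low counts, so none entered through 1 group only.

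The glands differed in composition, within groups and in part between them. The summed level of 13 skeletal muscle markers (Acta1, Ckm and others) ran from 41 to 13911 CPM (counts scaled to a common library total with TMM factors), and was 741, 9409 and 2583 CPM in sEV-CTRL, 3203, 41 and 1575 CPM in sEV-NORM, and 5039 and 13911 CPM in sEV-HYP. White adipocyte markers summed to 6243 to 11864 CPM and luminal epithelium markers to 859 to 1887 CPM, so the defining cells of the gland were present in every library. Fewer cells of a mitochondria-rich type and less RNA per cell cannot be told apart in such bulk samples.

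Promoter windows of the members held 3 short motifs more often than those of all protein-coding genes, a description on which no test was run. These motifs are named for NRF1, for the ETS family that includes the mitochondrial regulator GABPA, and for YY1, all transcription factors known to act on nuclear genes of mitochondria. Windows of 300 bases, 250 before and 50 after the RefSeq start site (GRCm38.p6), were at hand for 69 of the 78 genes and for 16477 protein-coding genes in all, and both strands were searched. A gene with several start sites had several windows, and a match in any of them counted. The NRF1 motif CGCATGCG, a palindrome, stood in windows of 7 of the 69 genes (10.1%) against 2.90% of all genes with a window. The ETS motif CCGGAAG stood in 26 (37.7%) against 13.4%, and the YY1 motif AAGATGGC in 12 (17.4%) against 3.65%. The MYC E-box CACGTG went the other way, with 5 genes (7.25%) against 9.19%, as did TATAAA, the core of the TATA box, with 5 (7.25%) against 14.3%. An ETS match can run into a YY1 match through the shared letters AAG, which it did in 0 of the 69 genes. With windows averaged by gene, median GC content was nearly the same, 58.0% against 57.0%, while the median number of CpG pairs was 21 against 14. A match of letters is a description of the window and not evidence of binding.

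Stretches of 30 bases from 4 windows, RefSeq sequence on the gene's own strand with the motif in capitals, show how these matches lie. Mrps22 and Mrpl53 are shown because they passed the threshold used below, Mrpl22 because it holds an ETS and an NRF1 match side by side, and Mrpl32 because it has 2 NRF1 matches. The Mrpl32 stretch holds 1 of these, and the other begins 23 bases before the start, outside the stretch. Mrpl53 has another ETS match as well, 16 bases before the start and outside its stretch. RefSeq starts can differ from the GENCODE gene starts used elsewhere in the text. The Mrpl32 stretch lies wholly and the Mrpl53 stretch mostly inside the gene as GENCODE places it.
Mrps22 (chr9:98601680-98601709, minus strand, bases 30 to 1 before the start): tgcacaaaaacctctcgagCCGGAAGttgc
Mrpl53 (chr6:83109038-83109067, plus strand, bases 70 to 41 before the start): ccgcggagccgCCGGAAGcggtccgttcca
Mrpl22 (chr11:58171610-58171639, plus strand, bases 54 to 25 before the start): cCCGGAAGccggcctcggactgCGCATGCG
Mrpl32 (chr13:14613105-14613134, minus strand, bases 97 to 68 before the start): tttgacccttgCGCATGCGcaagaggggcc

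Many of the 78 genes also stood head to head with another protein-coding gene. In the GENCODE M21 annotation of GRCm38, 33 of 78 (42.3%) had a start within 1000 bases of the start of a gene on the opposite strand, against 10.9% of 21938 protein-coding genes. One such pair consists of 2 members, Mrpl46 of the large subunit and Mrps11 of the small subunit on chromosome 7, whose first bases overlap. The other partners included genes of mitochondrial function beside many that are not, such as Psma2, Hira and Rab6a, and the share of each kind was not counted. Mrps12 lay 172 bases from Sars2, the mitochondrial seryl-tRNA synthetase, Mrpl43 overlapped the head of Twnk, the mitochondrial DNA helicase, Mrps27 lay 81 bases from Ptcd2, and Mrpl47 and Mrpl36 faced the complex I genes Ndufb5 and Ndufs6. The members were spread over 17 autosomes, with the most, 11 genes, on chromosome 11.

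Levels of the members differed among themselves far more than between glands. Per kilobase of transcript, the mean over the 8 libraries ran from 1.69 to 279 CPM per kb, a 165-fold range with a median of 20.4, and 9 genes lay over 100 CPM per kb while 14 lay under 10. The highest were Mrps21 (279 CPM per kb), Mrpl42 (229), Mrpl33 (175), Mrpl30 (172) and Mrps17 (139). The lowest were Mrps26 (1.69), Mrps25 (2.22), Mrpl19 (4.39), Mrpl23 (4.54) and Mrpl46 (4.69). Length weighs on this order. Mrps26, Mrps25 and Mrpl19 have annotated transcripts with medians of 4278, 6073 and 5000 bases, while Mrps21 has 446.5, and bases that are annotated but little used lower a level per kb. Mrps25 and Mrpl19 also overlap genes on the opposite strand, Nr2c2 over 4590 exon bases and Gcfc2 over 1962, and without a known strand setting reads of such pairs cannot be told apart. The low place of Mrpl23 depends on how shared reads were divided, since an identical pseudogene, described below, took 6241 counts against its 538. Large and small subunit genes had medians of 18.4 and 23.1 CPM per kb, and genes with a bacterial counterpart and those found only in mitochondria had 20.4 and 18.7, with ranges that overlapped almost fully.

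**Figure D1:**
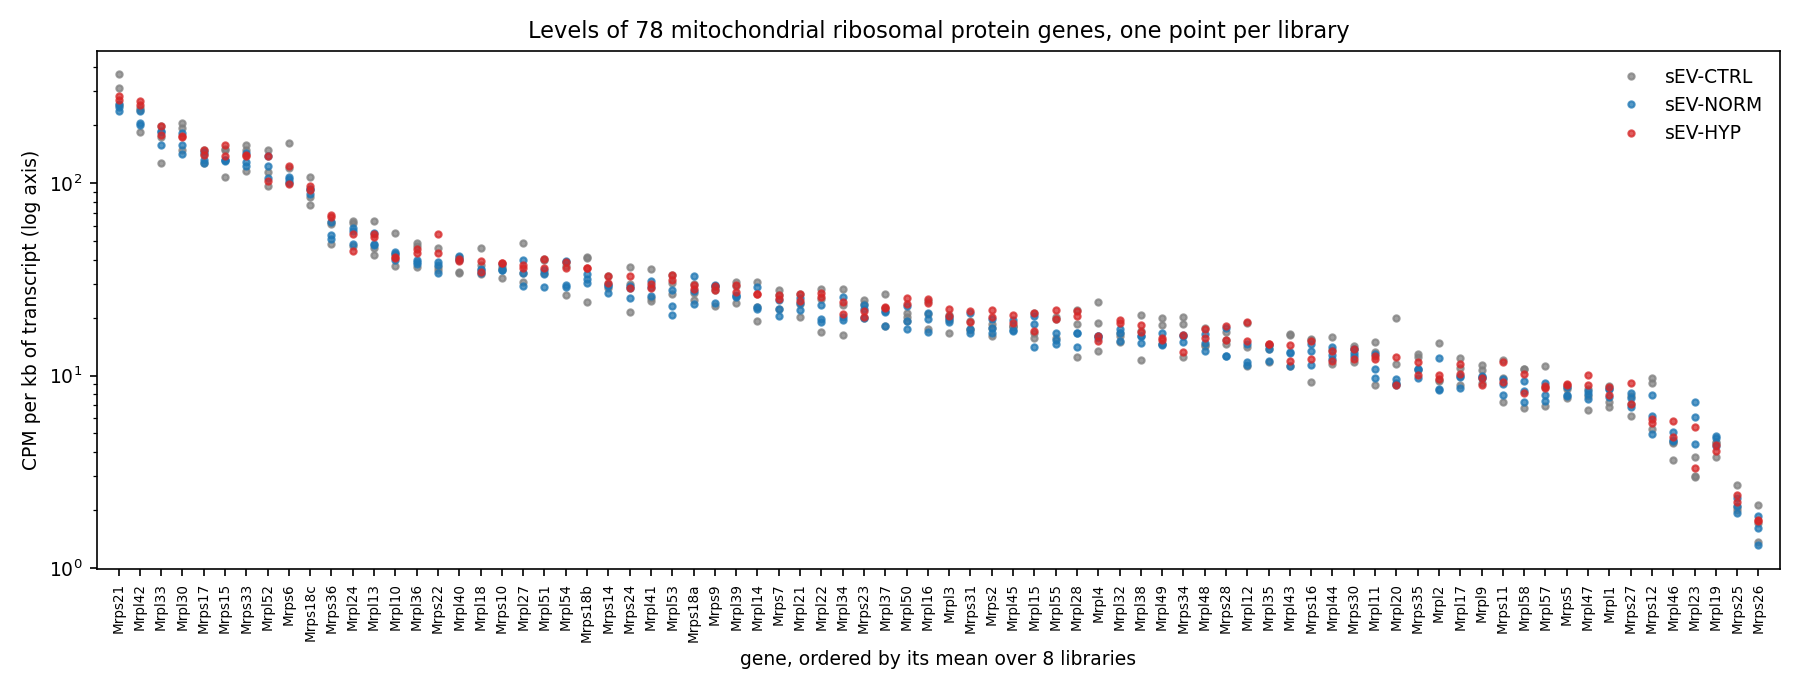
Level of each of the 78 mitochondrial ribosomal protein genes in CPM per kb of transcript (log axis), ordered by the mean, with 1 point per library coloured by group. The order runs from Mrps21 at 279 to Mrps26 at 1.69 CPM per kb, and for nearly every gene the points of the 3 groups lie on top of each other.

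In contrast to this range, each member kept close to its own level. The highest library was less than 2-fold above the lowest for 76 of the 78 genes, with a median of 1.47-fold. Among genes with a mean of at least 5 CPM, the coefficient of variation (CV) over the 8 libraries had a median of 12.5% for the 77 members and 16.8% for all 11757 genes. The steadiest were Mrps10 (5.79%), Mrps5 (6.42%) and Mrpl45 (6.48%), the protein that fastens the ribosome to the inner membrane. Mrpl45 had 43.9, 43.4 and 44.2 CPM in sEV-CTRL, 41.9, 41.6 and 47.5 in sEV-NORM, and 45.7 and 50.2 in sEV-HYP. The most variable were Mrpl20 (33.7%), Mrps12 (26.7%), Mrpl12 (21.4%), Mrpl2 (21.0%) and Mrpl4 (19.6%), and in each of these but Mrpl12 the highest library was sEV-CTRL replicate 3.

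That library stood apart, together with sEV-CTRL replicate 2. sEV-CTRL replicate 3 was the highest of the 8 for 36 of the 78 genes and the lowest for 15, whereas sEV-CTRL replicate 2 was the lowest for 33 and the highest for none. The deviation of a member from its own mean over the libraries, in log2 CPM, had a median of 0.17 in sEV-CTRL replicate 3 and -0.19 in sEV-CTRL replicate 2. GC content of the transcripts moved with this split. In sEV-CTRL replicate 3 the 26 members of highest GC (at least 52.5%) had a median deviation of 0.30 and the 26 of lowest GC (at most 48.4%) had -0.05, and in sEV-CTRL replicate 2 these medians were -0.32 and -0.10. All genes in the same GC ranges showed differences between high and low GC of 0.44 and -0.24 in these 2 libraries, beside 0.36 and -0.22 for the members. The part of GC content in the comparisons below was not tested.

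**Figure D2:**
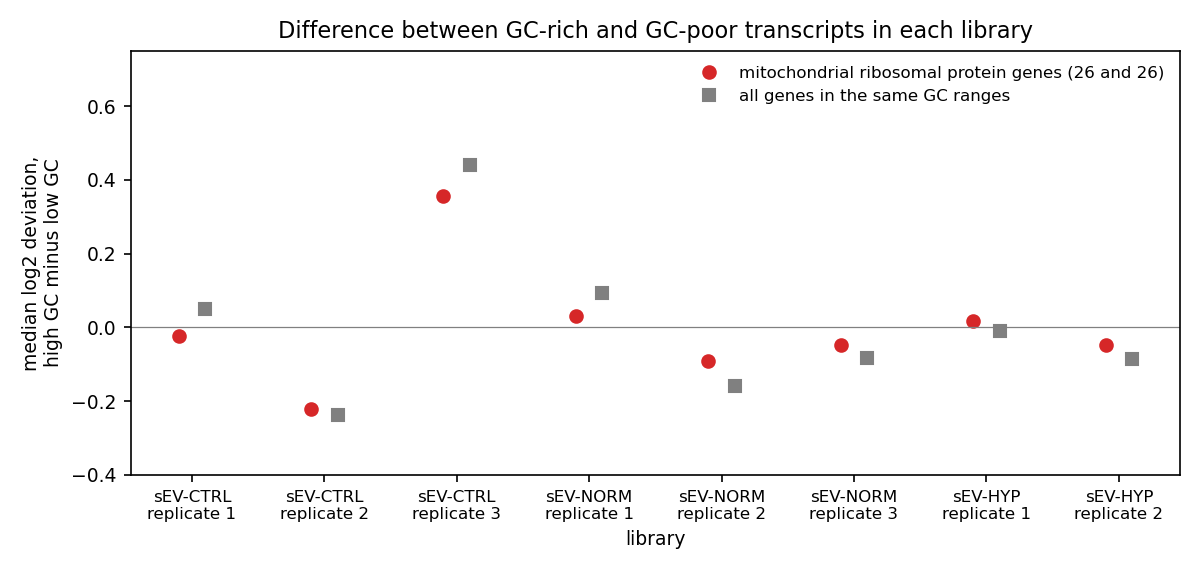
Median log2 deviation of GC-rich minus GC-poor transcripts in each library, for the 26 members of highest and 26 of lowest GC (circles) and for all genes with a mean of at least 5 CPM in the same GC ranges (squares). The members follow all genes, with sEV-CTRL replicate 3 at 0.36 and sEV-CTRL replicate 2 at -0.22, while the members lie between -0.09 and 0.03 in the other 6 libraries.

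To ask whether hypoxia in the vesicle-releasing cells made a difference, sEV-HYP was set against sEV-NORM. The members were slightly higher after sEV-HYP, 65 of 78, with a median log2 fold change of 0.12 where that of all 17858 genes tested was -0.02. Only 2 of the 78 (2.56%) passed an unadjusted P of 0.05, both upward, which is not more than the 3.95% of all genes that passed it. In 28 genes (35.9%) both sEV-HYP libraries lay above all 3 sEV-NORM libraries, against 12.3% of all genes, and in 1, Mrpl9 (named after its values were seen), both lay below, against 10.5%. The smallest adjusted P of a member was 0.9998 in this comparison, by edgeR's quasi-likelihood test with Benjamini-Hochberg adjustment, and 0 members passed an adjusted threshold in any of the 3.

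Mrps22, a small subunit protein found only in mitochondria (chr9:98588730-98601660), had 65.3 and 52.1 CPM in sEV-HYP, 46.6, 41.0 and 44.9 CPM in sEV-NORM, and 55.2, 43.6 and 42.4 CPM in sEV-CTRL. Both sEV-HYP libraries were above sEV-NORM, but 1 of the sEV-CTRL libraries lay between them. Relative to sEV-NORM it rose by 0.41 on the log2 scale (SE 0.176, 95% interval 0.01 to 0.81). Without sEV-HYP replicate 1 the value was 0.24 and no longer passed, and leaving out any 1 of the sEV-NORM libraries also ended the call, with values of 0.45, 0.36 and 0.42 for replicates 1, 2 and 3.

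Mrpl53, a large subunit protein found only in mitochondria (chr6:83109040-83109939), had 21.7 and 23.1 CPM in sEV-HYP, 19.4, 14.4 and 15.9 CPM in sEV-NORM, and 20.9, 18.3 and 23.2 CPM in sEV-CTRL. The sEV-NORM libraries were the low ones, and sEV-HYP overlapped sEV-CTRL. Relative to sEV-NORM it rose by 0.43 on the log2 scale (SE 0.191, 95% interval 0.0017 to 0.87). The call ended without sEV-CTRL replicate 1 (0.45), sEV-NORM replicate 2 (0.34), sEV-NORM replicate 3 (0.41), sEV-HYP replicate 1 (0.48) or sEV-HYP replicate 2 (0.39). A same-strand gene, Gm42688, matches its transcript at 100% over 695 bases and held counts equal to 10.9% of those of Mrpl53, so reads may be split between them. Just outside the threshold stood Mrpl55, named after its values were seen, with 14.9 and 16.6 CPM in sEV-HYP against 12.5, 11.6 and 11.0 CPM in sEV-NORM (log2 fold change 0.43, SE 0.191, 95% interval -0.00088 to 0.86).

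Neither subunit stood out. Of the large subunit genes 41 of 51 were higher, with a median of 0.12, and of the small subunit genes 23 of 26, with a median of 0.13. Genes with a bacterial counterpart had a median of 0.11 and those found only in mitochondria 0.13. The summed level of the large subunit genes divided by that of the small subunit genes was 1.54 and 1.59 in sEV-HYP, 1.60, 1.53 and 1.55 in sEV-NORM, and 1.56, 1.51 and 1.51 in sEV-CTRL. The balance between the subunits thus overlapped in all 3 groups. Summed over the members, the level was 3291 and 3243 CPM in sEV-HYP and 3131, 2879 and 2936 CPM in sEV-NORM, which did not overlap, but 3357, 2856 and 3273 CPM in sEV-CTRL, which spanned both.

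The limits were close for most members. The 95% interval of the log2 fold change of sEV-HYP against sEV-NORM lay within 2-fold either way for 76 of 78 genes (97.4%), against 56.5% of all genes, and within 1.5-fold for 44. The exceptions to the first were Mrpl20 and Mrpl23, both low in counts. The skeletal muscle markers moved with this comparison, 5039 and 13911 CPM against 3203, 41 and 1575 CPM, with 12 of 13 markers higher and 0 of them absent from all libraries. So did the brown adipocyte markers, 6 of 6 tested higher, with sums of 46.6 and 77.9 CPM against 29.6, 38.4 and 39.4 CPM. B and T cell markers were lower in 7 of 7 (median -0.49) and myeloid markers in 5 of 5 (median -0.13), and 0 of either list passed. The part of these cell types in the result was not tested beyond a muscle covariate. With the mean log2 CPM of the muscle markers in the model, the median of the members was 0.14 and neither Mrps22 (0.42) nor Mrpl53 (0.34) passed.

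**Figure D3:**
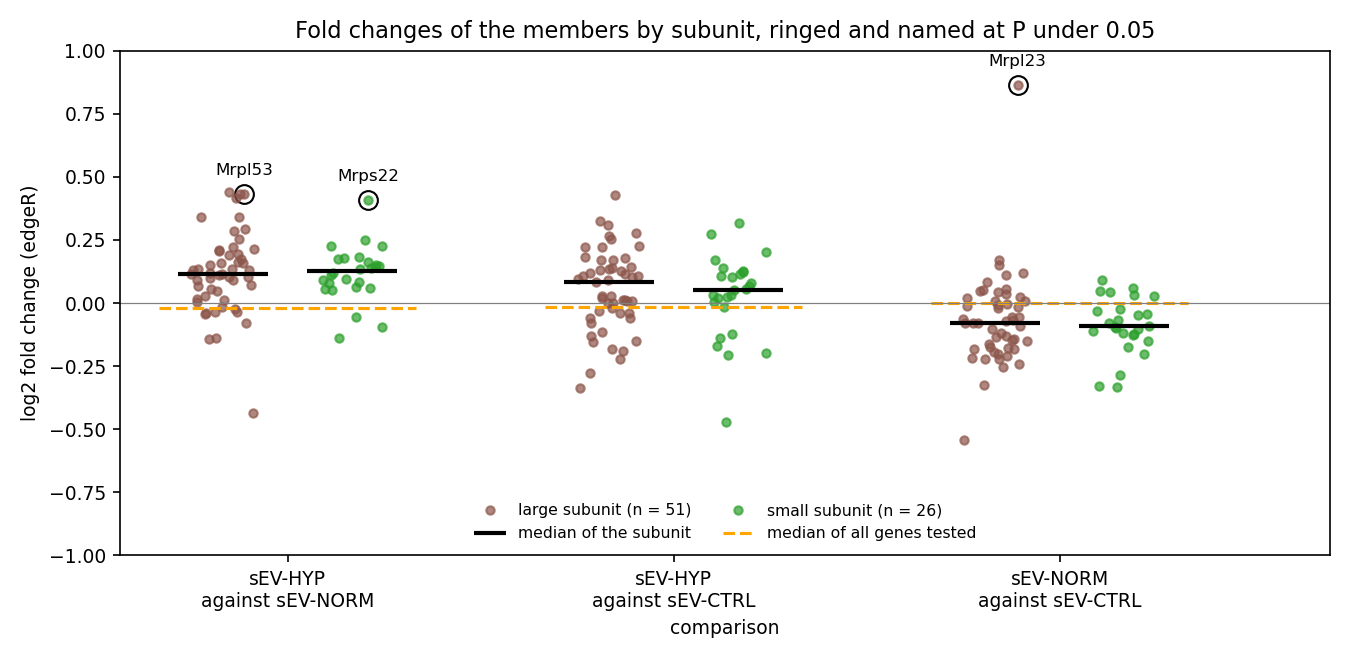
Log2 fold change of each member in the 3 comparisons (edgeR), split into 51 large and 26 small subunit genes, without Mrps36; bars are subunit medians, dashed lines the medians of all 17858 genes tested, and ringed points have an unadjusted P under 0.05. The points lie within 0.5 of zero except Mrpl20 at -0.54 and Mrpl23 at 0.86, both in sEV-NORM against sEV-CTRL, and the medians lie above zero in both sEV-HYP comparisons and below it in the third.

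Against the control vesicles, sEV-HYP showed less. Of the 78 genes 55 were higher, with a median log2 fold change of 0.06 beside -0.02 for all genes. An unadjusted P of 0.05 was passed by 0 of them by edgeR, against 2.45% of all genes, and by 0 by DESeq2 on the 2 groups, against 2.06%. In 11 genes (14.1%) both sEV-HYP libraries were above all sEV-CTRL libraries, against 6.7% of all genes, and in 0 were both below, against 6.08%. Skeletal muscle markers moved with this comparison too, 11 of 13 higher (median 1.09) with sums that overlapped. Brown adipocyte markers did so as well, 6 of 6 tested higher, and 2 rose, Ucp1 by 5.47 (SE 1.75) and Dio2 by 2.64 (SE 0.748). B and T cell markers were lower in 7 of 7 (median -0.26) and white adipocyte markers in 6 of 8 (median -0.12). Luminal epithelium markers were higher in 8 of 9 (median 0.34), where 0 passed. Basal epithelium markers were higher in 5 of 7, where Oxtr rose (0.76, SE 0.282). Their part in the result was not tested beyond the muscle covariate, with which the median was 0.07. The median turned with sEV-CTRL replicate 2, without which it was -0.03. Then 2 of the 78 genes passed (2.56%), against 8.26% of all genes, and 20 instead of 0 (25.6%) lay below every remaining sEV-CTRL library, against 18.7% of all genes.

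The members with the highest log2 fold changes against sEV-CTRL were Mrpl23 (0.43, SE 0.349), Mrpl46 (0.32, SE 0.242) and Mrps22 (0.32, SE 0.177). Mrpl46 had 5.41 and 6.58 CPM in sEV-HYP and 5.13, 4.15 and 5.09 CPM in sEV-CTRL, without overlap. The place of Mrpl23 is uncertain, since its value ran from 0.03 without sEV-HYP replicate 1 to 0.74 without sEV-HYP replicate 2 and was -0.17 when summed with its identical pseudogene. The lowest were Mrps12, part of the decoding centre, at -0.47 (SE 0.336), and the large subunit core proteins Mrpl20 at -0.34 (SE 0.355) and Mrpl4 at -0.28 (SE 0.237). The 95% intervals of all 6 included zero, the nearest to excluding it being Mrps22 at -0.08 to 0.72. Mrpl20 had 4.398 and 6.16 CPM in sEV-HYP and 5.69, 4.47 and 9.85 CPM in sEV-CTRL, and without sEV-CTRL replicate 3, the high library, its log2 fold change was 0.05. Mrps12 had 4.54 and 4.76 CPM in sEV-HYP and 7.36, 4.24 and 7.77 CPM in sEV-CTRL. Both genes thus overlapped between the groups. Without sEV-CTRL replicate 2, the low library, Mrps12 reached -0.70 and Mrpl4 -0.47 and both passed, and without sEV-CTRL replicate 1 Mrps22 reached 0.44 and passed. Other libraries moved them the other way. Without sEV-CTRL replicate 3 Mrps12 was at -0.32 and Mrpl4 at -0.05, and without sEV-HYP replicate 1 Mrps22 was at 0.15.

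Vesicles of normoxic cells were then compared with the control vesicles. Here 57 of 78 genes were lower after sEV-NORM, with a median log2 fold change of -0.08 beside -0.0008 for all genes. All 13 skeletal muscle markers were lower too (median -1.33), with sums that overlapped between the groups and 0 that passed. White adipocyte markers were lower in 7 of 8 (median -0.20) and brown adipocyte markers in 4 of 6 tested (log2 fold changes -0.46 to 3.47). Luminal epithelium markers were higher in 8 of 9 (median 0.29), where Foxa1 rose (0.68, SE 0.273), and B and T cell markers in 7 of 7 (median 0.06). The part of these cell types was not tested beyond the muscle covariate, with which the median of the members was -0.09. The single member with an unadjusted P under 0.05 was Mrpl23, against 1.62% of all genes, and it was higher. In 2 genes, Mrpl23 and Mrpl46, all sEV-NORM libraries lay above all sEV-CTRL libraries (2.69% of all genes did), and in 0 did all lie below (2.17% of all genes). Without sEV-CTRL replicate 2 the median was -0.18, 6 of the 78 genes passed (7.69%), against 5.72% of all genes, and 30 lay below every remaining sEV-CTRL library (38.5%), against 11.3% of all genes. The 3 comparisons share libraries, so the lower values of sEV-NORM enter this one and the comparison with sEV-HYP alike.

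Mrpl23, a large subunit protein near the exit of the peptide tunnel (chr7:142532686-142540747), had 3.06, 5.05 and 4.21 CPM in sEV-NORM, 2.08, 2.05 and 2.63 CPM in sEV-CTRL, and 3.76 and 2.30 CPM in sEV-HYP. All sEV-NORM libraries were above sEV-CTRL, and sEV-HYP lay across both. The log2 fold change of sEV-NORM against sEV-CTRL was 0.86 (SE 0.314, 95% interval 0.16 to 1.57). The call ended without sEV-CTRL replicate 1 (0.79) or 2 (0.80) or sEV-NORM replicate 2 (0.69) or 3 (0.85). These counts were only a small share of those assigned to an identical sequence. A processed pseudogene, Mrpl23-ps1 (chr2:74591330-74591909), matches its transcript at 100% over 540 bases and took 6241 counts over the 8 libraries where Mrpl23 took 538. The pseudogene had 40.4, 29.7 and 31.2 CPM in sEV-NORM and 41.1, 37.0 and 45.8 CPM in sEV-CTRL, with overlap. Summed before the fit, a choice made after the data were seen, the pair had 43.5, 34.8 and 35.4 CPM in sEV-NORM and 43.2, 39.0 and 48.4 CPM in sEV-CTRL, with a log2 fold change of -0.20 that did not pass. The direction thus turned, and the call ended, once reads that could belong to either were counted together. Mrpl23 held 4.82% to 5.42% of the pair in sEV-CTRL, 7.03% to 14.5% in sEV-NORM, and 9.12% and 6.38% in sEV-HYP.

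**Figure D4:**
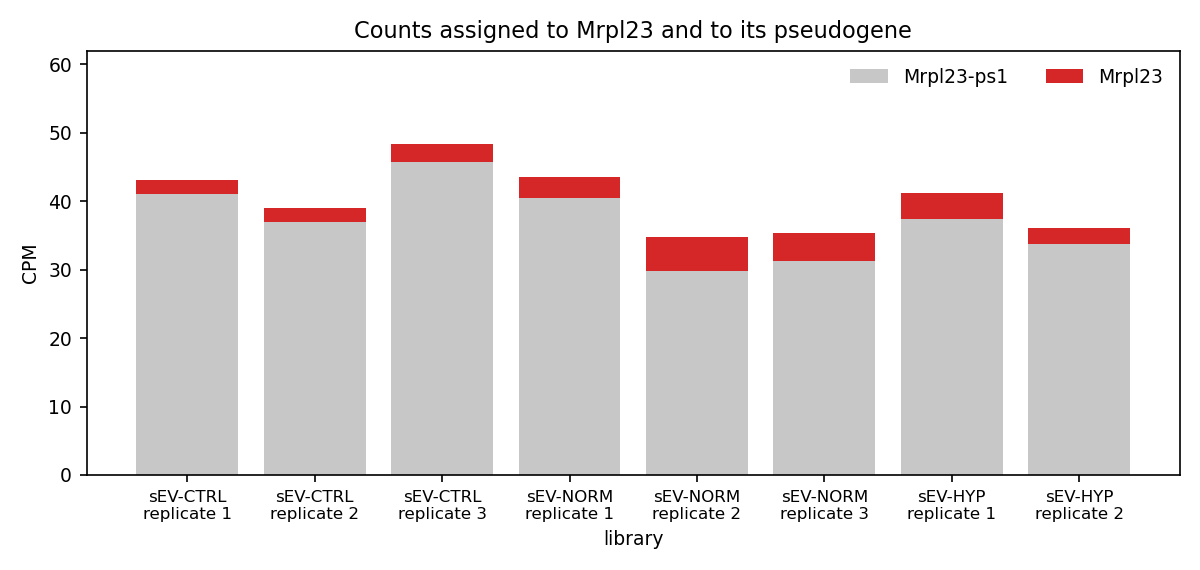
CPM assigned to Mrpl23 (red) and to its pseudogene Mrpl23-ps1 (grey), stacked for each library. Mrpl23 took 4.82% to 14.5% of the pair, and the sum ran from 34.8 to 48.4 CPM, with the red share largest at 14.5% in sEV-NORM replicate 2.

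Other members share sequence too. In all, 17 of the 78 had a stretch of at least 200 bases with at least 95% identity in a transcript of another gene. Mrps33 shared 321 bases with the pseudogene Gm5776, which held counts equal to 13.9% of its own. Mrps36 shared sequence with Mrps36-ps1 and Mrps36-ps2, at 11.9% and 6.81%. The matches of Mrps26 were many short ones to unrelated genes. Mrps36, which belongs to the enzyme complex rather than the ribosome, had 42.1 and 43.4 CPM in sEV-HYP, 40.1, 34.0 and 32.5 CPM in sEV-NORM and 38.8, 40.0 and 30.8 CPM in sEV-CTRL, above both other groups in each sEV-HYP library, with log2 fold changes of 0.27 (SE 0.174) and 0.23 (SE 0.174) that did not pass. Summing the pseudogenes changed no call or direction of Mrps36.

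None of the members chosen for their roles passed in sEV-HYP against sEV-NORM. The stalk proteins, which recruit translation factors, had log2 fold changes of sEV-HYP against sEV-NORM of -0.04 for Mrpl10, 0.16 for Mrpl11 and 0.44 for Mrpl12. Mrpl12, also known to bind the mitochondrial RNA polymerase, had the largest value of all members in this comparison, with 25.01 and 19.97 CPM in sEV-HYP and 19.2, 15.6 and 14.9 CPM in sEV-NORM, without overlap (SE 0.243, 95% interval -0.11 to 0.99), while 24.7 CPM was reached in sEV-CTRL as well. The 3 relatives of bacterial S18 sit at separate places in the ribosome. Mrps18c was at 91.6 CPM per kb, Mrps18b at 34.3 and Mrps18a at 27.9, and their log2 fold changes of sEV-HYP against sEV-NORM were 0.05, 0.18 and 0.05. Mrpl58, a peptidyl-tRNA hydrolase that rescues stalled ribosomes, had 25.6 and 20.4 CPM in sEV-HYP and 23.6, 18.3 and 20.9 CPM in sEV-NORM. Mrps30 had 40.3 and 45.7 CPM against 43.3, 41.7 and 45.4 CPM. Both overlapped between the groups. Mrps6 shares its locus, and 159 bases of exon, with the sodium/myo-inositol cotransporter Slc5a3, which had 93.4 to 187 CPM, and its own 83.8 to 137 CPM may hold reads of that gene.

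The other genes of mitochondrial gene expression gave a frame for these values. None of the 5 mitoribosome proteins without the Mrp name (Dap3, Gadd45gip1, Ptcd3, Chchd1 and Aurkaip1) passed in any comparison, and all 5 were higher in sEV-HYP against sEV-NORM, by log2 fold changes of 0.04 to 0.19. Of 24 genes of ribosome assembly and rRNA modification 0 passed in any comparison, with 11 higher and 13 lower and a median of -0.01 in sEV-HYP against sEV-NORM. Of 15 translation factors 1 rose there, Taco1, an activator of Cox1 translation (log2 fold change 0.70, SE 0.276), with 6.28 and 7.23 CPM in sEV-HYP and 4.99, 4.17 and 3.31 CPM in sEV-NORM. The elongation factor Tufm was at 0.14 (SE 0.271). None of 20 mitochondrial aminoacyl-tRNA synthetases and none of 10 genes of mitochondrial DNA transcription and replication passed, with medians of -0.01 and -0.14 in sEV-HYP against sEV-NORM. The second was 0.01 without sEV-HYP replicate 1 and -0.04 with the muscle covariate. Tfam, which packages mitochondrial DNA, was at -0.14 (SE 0.229) and the RNA polymerase Polrmt at -0.18 (SE 0.362). Of 9 regulators of mitochondrial genes 0 passed, and the coactivator Ppargc1a was at 0.67 (SE 0.391). Counts of 0 in these lists are by edgeR at the unadjusted threshold, and 0 of all genes passed an adjusted P of 0.05 by edgeR in any comparison, while DESeq2 on the 2 groups gave 85, 14 and 3 genes, none of them a member.

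The nuclear subunits of oxidative phosphorylation (OXPHOS), most of which join complexes that also hold proteins made by mitochondrial ribosomes (complex II holds none), differed more between sEV-HYP and sEV-NORM. All 75 were higher, against 47.0% of all genes, with a median log2 fold change of 0.25 beside 0.12 for the ribosomal proteins. In 58 of the 75 (77.3%) both sEV-HYP libraries lay above every sEV-NORM library, beside 28 of 78 ribosomal proteins (35.9%) and 12.3% of all genes. The difference between these lists was not tested. Of the 75, 5 passed the unadjusted P of 0.05 (6.67%, against 3.95% of all genes). All 5 were upward: Ndufa5 and Ndufa12 of complex I, Sdhd of complex II, Cox7c of complex IV and Atp5g3 of ATP synthase. Atp5g3 had 292 and 290 CPM in sEV-HYP and 221, 204 and 216 CPM in sEV-NORM (log2 fold change 0.45, SE 0.154), above sEV-CTRL as well, which had 247, 222 and 273 CPM. Against sEV-CTRL, 43 of 75 were higher in sEV-HYP with a median of 0.02 (-0.08 without sEV-CTRL replicate 2 and 0.16 without replicate 3). There 14 (18.7%) lay above every sEV-CTRL library, against 6.7% of all genes. Only 2 rose, Ndufc1 and Cox7c (2.67%, where 2.45% of all genes passed). In sEV-NORM against sEV-CTRL 73 of 75 were lower with a median of -0.21, and 1 fell, Ndufa8 (1.33%, where 1.62% of all genes passed). By library, the median deviation of the OXPHOS genes was lowest in sEV-NORM replicate 2 (-0.25), where the muscle markers were at 41 CPM. It was highest in sEV-CTRL replicate 3 (0.36), where these markers were at 2583 CPM. In sEV-HYP replicate 2, with muscle markers at 13911 CPM, it was 0.15. In sEV-CTRL replicate 2, with muscle markers at 9409 CPM, it was -0.12. Whether these deviations followed muscle content was not tested beyond the muscle covariate, whose result for the OXPHOS genes is not reported here.

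**Figure D5:**
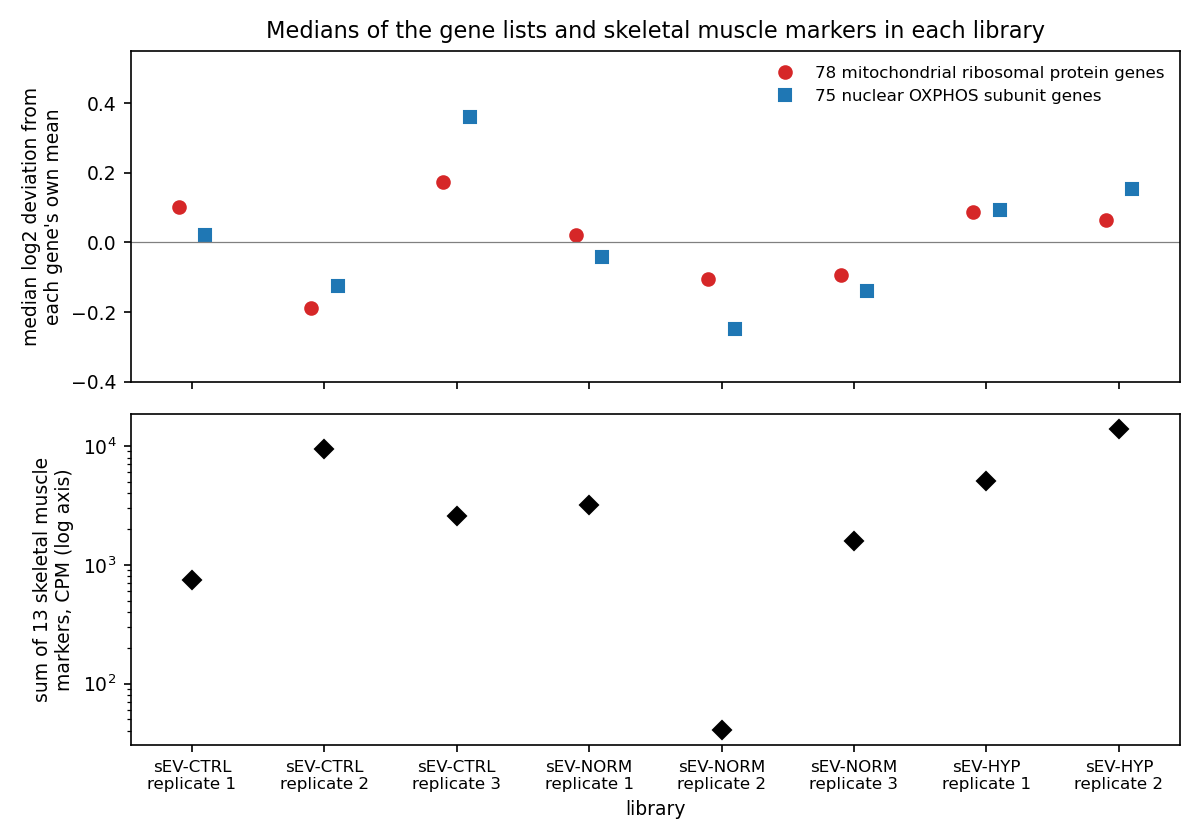
Upper panel, median log2 deviation from each gene's own mean over the 8 libraries, for the 78 mitochondrial ribosomal protein genes (circles) and 75 nuclear OXPHOS subunit genes (squares). Lower panel, summed CPM of 13 skeletal muscle markers (log axis). The ribosomal proteins run from -0.19 to 0.17, both extremes in sEV-CTRL, and the muscle sum from 41 to 13911 CPM, highest in sEV-HYP replicate 2.

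Taking the libraries one at a time, 64 and 54 of the 78 genes lay above their own mean in the sEV-HYP libraries, 43, 17 and 19 in sEV-NORM, and 58, 12 and 51 in sEV-CTRL. The sEV-CTRL group thus held both the library with the fewest members above their mean and one with more than sEV-HYP replicate 2. Genes of mitochondrial DNA itself are not in the table analysed here, so the messages that these ribosomes translate were not measured.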

How the data were processed

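RNA from 8 mammary glands was analyzed, with groups taken from the labels. The authors aligned reads with STAR to mm10 (GRCm38) and estimated gene counts of Ensembl release 89 with RSEM 1.2.12. The deposited values are counts, whole numbers without normalization. How estimates became whole numbers, and the strand setting, are not given in the sources used here. Libraries were made from polyA RNA. RSEM divides reads shared by a gene and its copies by a model.

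Of 51789 genes, 51596 were given a GENCODE M21 symbol. The fit was made with edgeR 4.0.16 under R 4.3.3 (filterByExpr, minimum count 10; TMM factors between 0.975 and 1.02; two-sided quasi-likelihood test, 1 model of 3 groups; 5 residual and 4.08 prior degrees of freedom). "Passed", "rose" and "fell" refer to an unadjusted P of 0.05, the study's threshold, and sizes are given with standard errors or 95% intervals, with Benjamini-Hochberg adjustment over 17858 genes. Log2 CPM used a prior count of 2. With 2 or 3 glands per group, P values measure the spread between these glands only. The procedure was tested on simulated data. No library pair was close enough to be a duplicate.

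The members, the 7 pathway and 10 marker lists and the rule for named genes were chosen with earlier results of these data known. The rule named, for each comparison, every member under the threshold, otherwise the 3 highest and 3 lowest fold changes, the 5 highest and 5 lowest levels per kb, the 5 largest and 3 smallest CVs, and members of set roles. Alternatives were DESeq2 1.42.0 on the 2 groups, its size factors, 2 filters, a replicate block, a muscle covariate, each library left out and, added after the data were seen, members summed with their pseudogenes (Mrpl23, Mrps36). Transcript length and GC are medians over protein-coding transcripts of the basic annotation. One promoter sequence is not reported here.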

Additional observations from a re-analysis of the deposited data

How the results depend on the processing

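The medians of the members moved by less than the spread between libraries (SD 0.114 in mean log2 CPM) under every alternative tried, including DESeq2's size factors, DESeq2 on the 2 groups compared, both filters, the replicate block and the muscle covariate. This is a coarse measure, because that SD is close to or larger than the medians themselves (0.12, 0.06 and -0.08). A median can therefore vanish or change sign and still count as unmoved. With each library left out in turn they ran from 0.11 to 0.17 for sEV-HYP against sEV-NORM, from -0.03 to 0.10 for sEV-HYP against sEV-CTRL and from -0.18 to -0.02 for sEV-NORM against sEV-CTRL. Only the second changed sign, without sEV-CTRL replicate 2. Counts of members under the unadjusted P of 0.05 were small and moved more. For sEV-HYP against sEV-NORM they were 0 without a filter on low counts (4.04% of all genes), 0 with the muscle covariate (4.63%), 1 with the replicate block (4.31%) and 5 (6.41%) with DESeq2 on the 2 groups (6.56%), in place of 2. With a sEV-CTRL or sEV-NORM library left out they ran from 0 (2.86% of all genes, without sEV-NORM replicate 2) to 4 (5.13%, against 5.54%, without sEV-CTRL replicate 2). For sEV-HYP against sEV-CTRL they ran from 0 to 2 in these refits, with 2 (2.56%, against 8.26% of all genes) without sEV-CTRL replicate 2. For sEV-NORM against sEV-CTRL they ran from 0 to 6, with 6 (7.69%, against 5.72%) without that library. Under the muscle covariate the last comparison had 0 (2.45% of all genes) in place of 1. No member passed an adjusted P of 0.05 under any of these. The call of Mrpl23 also ended without sEV-CTRL replicate 1 or 2 or sEV-NORM replicate 2 or 3. Signs turned for Mrpl20 in sEV-HYP against sEV-CTRL without sEV-CTRL replicate 3 (from -0.60 to 0.054 over all libraries left out in turn), and for Mrpl23 summed with its pseudogene in all 3 comparisons (0.027 for sEV-HYP against sEV-NORM, -0.17 for sEV-HYP against sEV-CTRL and -0.20 for sEV-NORM against sEV-CTRL). Over all genes, leaving out sEV-CTRL replicate 2 raised the count under the threshold from 438 to 1475 in sEV-HYP against sEV-CTRL and from 290 to 1021 in sEV-NORM against sEV-CTRL.

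The replicate numbers are shared by the groups, but correlations of same-numbered libraries, as deviations from their group means, ran from -0.53 to 0.58, so the numbers were not taken as a pairing. With the block, Mrps22 (0.37) and Mrpl53 (0.47) no longer passed in sEV-HYP against sEV-NORM, and 1 other member did, Mrpl28 (0.53), while 0 passed in sEV-HYP against sEV-CTRL and 1, Mrpl23 again, in sEV-NORM against sEV-CTRL. With 1 sEV-HYP library left out, the remaining one is assumed to vary like the other groups. Depth limits the members with few counts, Mrpl23 (41 to 114 per library) and Mrpl20 (96 to 180), whose values carry sizeable counting error.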
